A study of Mus musculus with 5 samples.

Results

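The glycolytic enzymes described here are 8 genes, Pfkl, Pfkp, Aldoc, Aldoa, Tpi1, Pgam1, Pkm and Ldha, taken by symbol from a table of 12293 genes, in which all 8 were present. Their RNA was measured in 5 libraries from mammary epithelial cells of adult virgin mice whose ovaries had been removed and which carried hormone pellets for 14 days; the labels do not name the hormones. The populations were sorted, each as lineage-negative and CD24+. LdBC (luminal-derived basal cells) were CD29hi and GFP+ (2 libraries), Basal cells were CD29hi and TdTomato+ (2 libraries), and Luminal cells were CD29low and GFP+ (1 library). The labels do not give the Cre or reporter alleles behind GFP and TdTomato. Each library came from about 50 cells, amplified with a modified Smart-seq2 protocol. The labels do not say whether libraries of a group came from separate animals, so the p-values below reflect the spread among the libraries alone, and that spread may be technical.

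Glycolysis splits glucose into pyruvate in the cytosol, and lactate dehydrogenase turns pyruvate into lactate. Several steps have isoforms from separate genes, and tissues differ in the isoform they use: phosphofructokinase has a liver (Pfkl), a platelet (Pfkp) and a muscle (Pfkm) form, and aldolase has, among others, a widely expressed form (Aldoa) and a form best known from brain (Aldoc). In the mammary gland, glucose also feeds the pentose phosphate pathway and, in lactation, the synthesis of lactose.

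The sorted populations were set against keratin and other markers of the epithelial lineages. The 6 luminal markers (Krt8, Krt18, Krt19, Epcam, Cldn3 and Cldn7) summed to 27490 and 24440 FPKM in LdBC, 1063 and 838.4 FPKM in Basal and 23140 FPKM in Luminal. FPKM gives the fragments of a gene relative to its transcript length and to the size of the library. The 6 basal markers (Krt5, Krt14, Acta2, Trp63, Mylk and Cnn1) summed to 1180 and 1977 FPKM in LdBC and to 7373 and 6841 FPKM in Basal, and all 6 were listed at 0 in Luminal. LdBC thus held luminal markers near the level of Luminal, with basal markers below Basal in both libraries. Since these are bulk libraries, a smaller share of cells of a type and less RNA per cell cannot be told apart. Of 4 adipocyte markers, 1 (Fabp4) was in the table, at 0 and 9.97 FPKM in LdBC, 473 and 0 FPKM in Basal and 0 FPKM in Luminal. The 3 endothelial markers in the table summed to 124 FPKM in Basal library 1 and to at most 3.88 FPKM elsewhere. No count of reads was used here, so the depth of the libraries is unknown. Between 8041 (Luminal) and 10979 genes (Basal library 1) were above 0 in a library, and 264 of 2900 genes at 10 FPKM or more in the other 4 libraries were under 1 FPKM in Luminal, against 2 to 51 such genes in the others.

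The 2 isoform pairs are distinct enough in sequence to be read apart over most of their length. Aldoc and Aldoa were identical at 75.7% of 1089 aligned coding bases, with a longest shared run of 26 bases. Pfkl and Pfkp were identical at 67.7% of 2319 aligned coding bases, with a longest shared run of 18 bases. The most different ungapped stretch of 60 bases within 1 exon of each pair is shown on the coding strand, 5′ to 3′, with the bases that differ between the pair in capitals (GENCODE M21 transcripts, GRCm38, the assembly of mm10). They show what separates a read of one isoform from a read of the other.
Aldoc, chr11:78324747-78324806, plus strand: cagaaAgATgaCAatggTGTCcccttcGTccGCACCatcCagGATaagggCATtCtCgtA
Aldoa, chr7:126797346-126797405, minus strand: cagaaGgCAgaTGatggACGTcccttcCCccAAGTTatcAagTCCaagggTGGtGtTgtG
Pfkl, chr10:77988867-77988926, minus strand: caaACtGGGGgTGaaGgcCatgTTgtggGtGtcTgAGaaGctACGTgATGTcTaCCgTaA
Pfkp, chr13:6584603-6584662, minus strand: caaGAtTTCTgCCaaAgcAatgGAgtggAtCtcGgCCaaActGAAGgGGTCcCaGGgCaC
The aldolase stretches differ at 26 of 60 bases and the phosphofructokinase stretches at 31 of 60.

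Other copies in the genome bear on some of the values (positions from GENCODE M21, GRCm38). Pfkl (chromosome 10, 77986947 to 78010083, 22 exons), Pfkp (chromosome 13, 6579768 to 6648777, 22 exons) and Aldoc (chromosome 11, 78322968 to 78327781, 9 exons) had no other annotated gene with 90% identity over 50% of their coding sequence. Aldoa (chromosome 7, 126795234 to 126800751, 10 exons) had 4 such genes and Tpi1 (chromosome 6, 124810586 to 124814296, 7 exons) had 1. Pgam1 (chromosome 19, 41911923 to 41918660, 4 exons) had 3, of which the pseudogene Pgam1-ps2 matched all 762 coding bases. Pkm (chromosome 9, 59656368 to 59679375, 11 exons) had 4, the closest at 98.4%, and Ldha (chromosome 7, 46841475 to 46855627, 8 exons) had 8, the closest at 95.9%. None of these copies was a row of the table, and the sources used here do not say how fragments were shared out among copies, so the levels of these 5 genes are uncertain to that extent. Pkm encodes the 2 splice forms M1 and M2, which a value per gene does not separate. Gm49759, on the same strand as Pkm and not a row of the table, shares 767 exon bases with it. Fam57b, also not a row, shares 25 exon bases with Aldoa on the opposite strand.

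**Figure D1:**
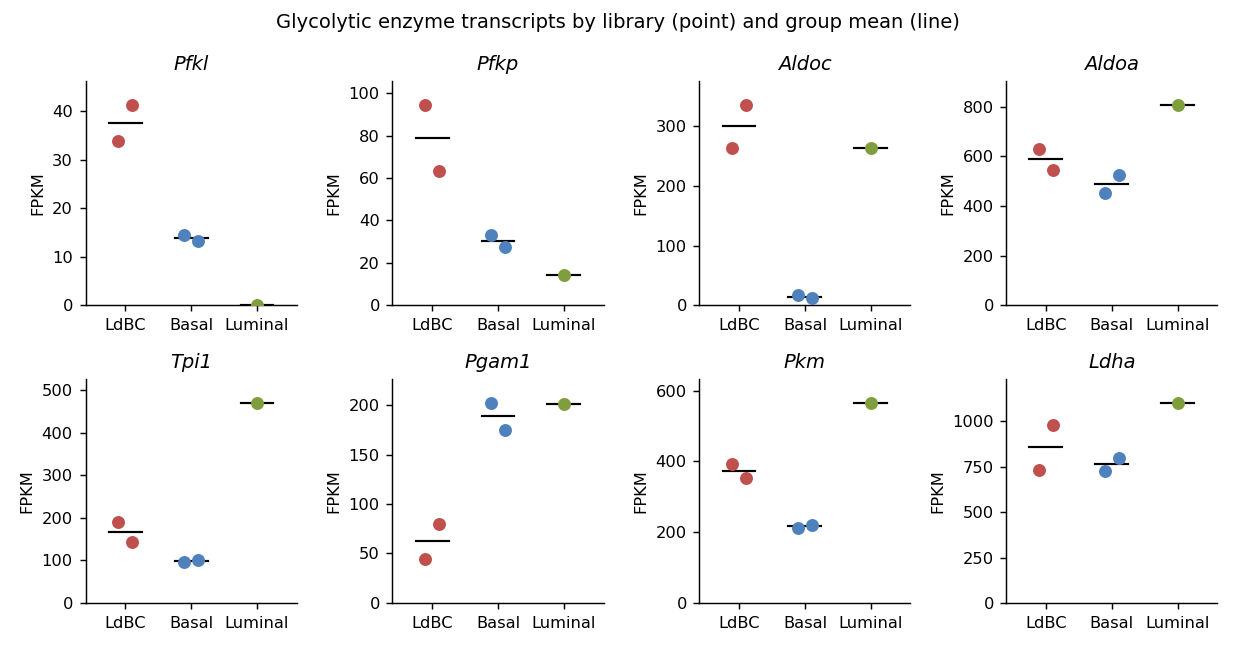
FPKM (vertical axes, linear from 0) of the 8 glycolytic enzymes in LdBC (2 points), Basal (2 points) and Luminal (1 point); each point is a library and each line a group mean. Aldoc is at 11.9 and 16.7 FPKM in Basal and above 260 FPKM in the other 3 libraries, and Pgam1 is at 44.9 and 80.0 FPKM in LdBC and at 175 FPKM or more elsewhere.

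Phosphofructokinase makes fructose 1,6-bisphosphate, the committed step of glycolysis. Pfkl had 33.8 and 41.3 FPKM in LdBC, 14.6 and 13.3 FPKM in Basal and 0.0837 FPKM in Luminal. The 3 populations did not overlap, and Luminal held almost no Pfkl. Pfkp had 94.5 and 63.3 FPKM in LdBC, 33.3 and 27.5 FPKM in Basal and 14.3 FPKM in Luminal. It followed the same order as Pfkl, with LdBC above Basal and Basal above Luminal, over a narrower range: the highest library was 6.61 times the lowest for Pfkp and 494 times for Pfkl. The reading of Pfkl in Luminal rests on 1 library in which 264 of 2900 genes at 10 FPKM or more elsewhere, Pfkl among them, were under 1 FPKM. On the opposite strand, Pitrm1 shares 748 exon bases with Pfkp, and strand use in counting is not given; Pitrm1 had 16.9 and 17.5 FPKM in LdBC, 5.05 and 10.4 FPKM in Basal and 17.5 FPKM in Luminal.

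Aldolase splits fructose 1,6-bisphosphate into a pair of triose phosphates. Aldoc, its brain-type form, had 264 and 336 FPKM in LdBC, 16.7 and 11.9 FPKM in Basal and 264 FPKM in Luminal. Both Basal libraries lay far below the other 3, and Luminal lay within the range of LdBC. The mean was 300.0 ± 50.8 FPKM in LdBC and 14.3 ± 3.42 FPKM in Basal (SD, n = 2 each), a ratio of 21. Aldoa, the widely expressed form, had 630 and 545 FPKM in LdBC, 451 and 523 FPKM in Basal and 806 FPKM in Luminal. Its highest library was 1.79 times its lowest, against 28.2 times for Aldoc, and LdBC exceeded Basal by only 1.21 times in the means.

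Triosephosphate isomerase and phosphoglycerate mutase act further down, on the triose phosphates and phosphoglycerate. Tpi1 had 190 and 143 FPKM in LdBC, 96.3 and 101 FPKM in Basal and 470 FPKM in Luminal. Luminal was the highest library, and each LdBC library lay above each Basal library. Spsb2 shares 34 exon bases with Tpi1 on the opposite strand and had 10.3 and 21.03 FPKM in LdBC, 10.9 and 4.19 FPKM in Basal and 72.9 FPKM in Luminal. Pgam1, which moves the phosphate group of phosphoglycerate, had 44.9 and 80.0 FPKM in LdBC, 202.5 and 175 FPKM in Basal and 202 FPKM in Luminal. It was the one enzyme of the 8 with LdBC below both other populations, at a mean of 62.4 ± 24.9 FPKM against 188.7 ± 19.6 FPKM in Basal (SD, n = 2 each), a ratio of 0.331. The LdBC libraries also stood furthest apart for Pgam1 among the 8, by 0.82 on the log2 scale. Of 6 fibroblast markers, the 4 in the table summed to 29.6 and 67.1 FPKM in LdBC, 279 and 273 FPKM in Basal and 305 FPKM in Luminal, so they were also lowest in LdBC. Nearly all of that was Dcn, while the collagens Col1a2 and Col3a1 were at 2.43 FPKM or less in every library, and the part of such cells in the Pgam1 levels was not tested.

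Pyruvate kinase makes pyruvate and ATP, and lactate dehydrogenase A favours the step to lactate. Pkm had 392 and 353 FPKM in LdBC, 212 and 220.5 FPKM in Basal and 566 FPKM in Luminal. Its libraries fell in 3 separate levels, with Luminal highest and Basal lowest. Ldha, the most abundant of the 8 in every library, had 734 and 982 FPKM in LdBC, 728 and 798.5 FPKM in Basal and 1103 FPKM in Luminal. LdBC and Basal overlapped for Ldha, and its highest library was only 1.52 times its lowest.

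The 8 enzymes did not share one order of the group means. Pfkl and Pfkp ran LdBC, Basal, Luminal from high to low. Aldoa, Tpi1, Pkm and Ldha ran Luminal, LdBC, Basal. Summed FPKM of all genes followed that order: Luminal had 813063, the LdBC pair 597580 and 605251, and the Basal pair 457513 and 405093. Tpi1 and Pkm kept the order under median-of-ratios scaling and under quantile normalization. Aldoa and Ldha did not, since both methods put the Basal mean highest. Aldoc ran LdBC, Luminal, Basal, where LdBC and Luminal do not differ beyond the spread of the LdBC pair. Pgam1 ran Luminal, Basal, LdBC, where Luminal lay within the range of the Basal pair. With either scaling, Basal lay above Luminal for Pgam1.

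LdBC was set against Basal to see how cells that share the CD29hi gate differ. On log2(FPKM + 1), tested with limma over 10626 genes with a mean FPKM of at least 1, none of the 8 enzymes passed a Benjamini-Hochberg adjusted p under 0.05, and 6 had an unadjusted p under 0.05. Over all genes tested 0.00941% passed the adjusted threshold (1 gene) and 20.0% the unadjusted one. In 6 of the 8 the LdBC libraries lay above Basal with no overlap, which held for 30.5% of all genes tested, and in 1 they lay below, which held for 18.6%. These counts depend on the scaling: under median-of-ratios scaling, as under quantile normalization, 2 of the 8 had an unadjusted p under 0.05, and 5 of the 8 under the first and 4 under the second lay above Basal without overlap. Without Basal replicate 1 and without Basal replicate 2, 1 and 2 of the 8 had an unadjusted p under 0.05. The median difference of the 8 was 0.76, against 0.20 for all genes tested. Aldoc had the largest difference, 4.31 ± 0.28 (SE), with an unadjusted p of 0.000187 and an adjusted p of 0.123 in limma. Both phosphofructokinases were higher in LdBC by near-equal amounts, 1.37 ± 0.36 for Pfkl (limma adjusted p = 0.174) and 1.33 ± 0.33 for Pfkp (limma adjusted p = 0.161). Pgam1 had a difference of -1.63 ± 0.36 (limma adjusted p = 0.144), Pkm of 0.78 ± 0.15 (limma adjusted p = 0.13) and Tpi1 of 0.73 ± 0.22 (limma adjusted p = 0.204). Median-of-ratios scaling gave 0.39 for Pkm and 0.35 for Tpi1, and quantile normalization gave 0.36 and 0.34. Aldoa, at 0.27 ± 0.17, and Ldha, at 0.16 ± 0.20, were near the median of all genes, and both turned negative when libraries were scaled by the median of ratios (-0.12 and -0.24) or by quantiles (-0.23 and -0.36). The spread of each gene rests on 2 residual degrees of freedom with 1.65 added by the prior.

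LdBC and Luminal share the GFP+ gate, and the LdBC libraries are those of the comparison above. The single Luminal library was assumed to vary like the others. Pfkl rose in LdBC, by 5.15 ± 0.44 on log2(FPKM + 1) (SE, limma adjusted p = 0.044), and it was the 1 enzyme of the 8 to pass, where 4.01% of all genes tested passed. This call was lost when any LdBC or Basal library was left out (limma adjusted p from 0.0725 to 0.234), with no filter on the mean (0.0571) and with median-of-ratios scaling (0.0504). Its size depends on the pseudocount, with 7.67 at a pseudocount of 0.1 and 3.06 at 5. Other calls were gained: Pfkp passed with a pseudocount of 0.1 (limma adjusted p = 0.0492) and with a mean FPKM of at least 5 (0.046), and Tpi1 passed with that filter (0.0476). An unadjusted p under 0.05 was found for 5 of the 8, against 31.2% of all genes tested. Both LdBC libraries lay above Luminal for 2 enzymes, Pfkl and Pfkp, and below it for 5, against 35.0% and 41.7% of all genes tested. Pfkp differed by 2.36 ± 0.40 (limma adjusted p = 0.0667), Tpi1 by -1.50 ± 0.27 (limma adjusted p = 0.0716) and Pgam1 by -1.73 ± 0.44 (limma adjusted p = 0.0997). Pkm differed by -0.60 ± 0.19, Aldoa by -0.46 ± 0.21 and Ldha by -0.38 ± 0.25, with limma adjusted p of 0.135, 0.23 and 0.378. Aldoc differed by 0.17 ± 0.34 (limma adjusted p = 0.74). Scaling moved these 4: median-of-ratios scaling gave -0.20 for Pkm, -0.05 for Aldoa, 0.03 for Ldha and 0.58 for Aldoc, and quantile normalization gave -0.10 for Pkm, -0.15 for Aldoa, -0.18 for Ldha and 0.70 for Aldoc. Under both, the LdBC libraries lay above Luminal for Aldoc without overlap (limma adjusted p = 0.319 and 0.29).

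Basal against Luminal sets the 2 resident lineages side by side, with libraries that also stand in the comparisons above. Pfkl rose in Basal, by 3.78 ± 0.44 (SE, limma adjusted p = 0.0391). Aldoc fell by 4.13 ± 0.34 (limma adjusted p = 0.0349), Tpi1 by 2.24 ± 0.27 (limma adjusted p = 0.0404) and Pkm by 1.38 ± 0.19 (limma adjusted p = 0.0442). These 4 of 8 calls stand beside 8.31% of all genes tested. All 4 were lost when any LdBC or Basal library was left out, with limma adjusted p between 0.066 and 0.2. Pfkl was at 6.25 with a pseudocount of 0.1 and at 1.89 with 5, where its call was lost (limma adjusted p = 0.0505), and the call of Pkm was lost with no filter on the mean (0.0521). Median-of-ratios scaling, like a fit without an intensity trend, kept the calls of Pfkl and Aldoc only, and quantile normalization kept Aldoc only. Aldoa differed by -0.73 ± 0.21 (limma adjusted p = 0.0979), Ldha by -0.53 ± 0.25 (0.209), Pfkp by 1.03 ± 0.40 (0.155) and Pgam1 by -0.10 ± 0.44 (0.89). Of these, Aldoa, Ldha and Pgam1 turned positive under median-of-ratios scaling (0.07, 0.27 and 0.69) and quantile normalization (0.09, 0.18 and 0.85). An unadjusted p under 0.05 was found for 5 of the 8, against 38.1% of all genes tested. Basal lay above Luminal for 2 enzymes and below it for 5 without overlap, against 39.8% and 48.5% of all genes tested.

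**Figure D2:**
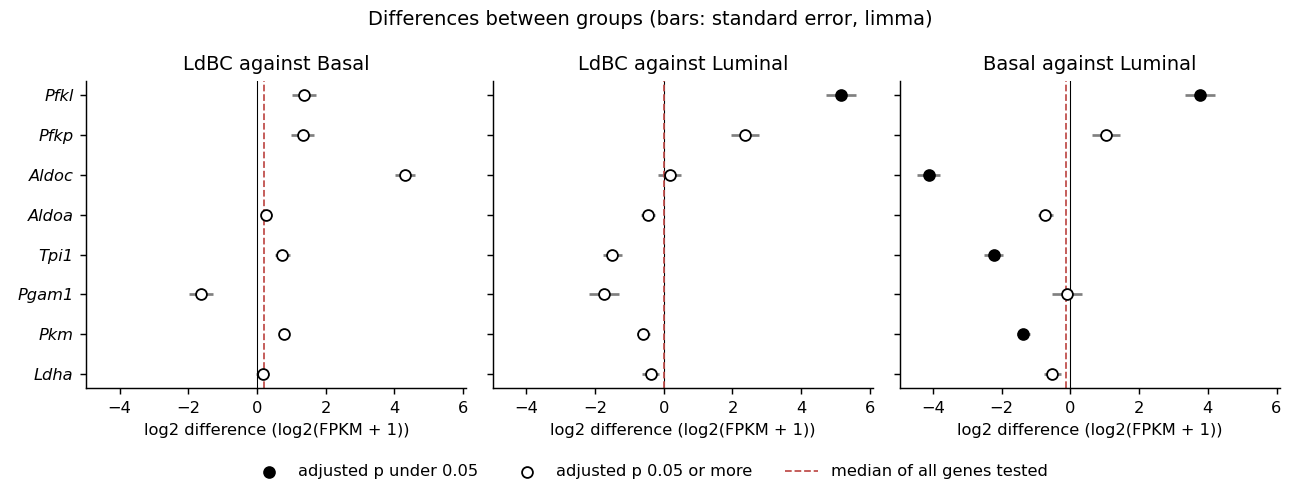
Log2 differences of log2(FPKM + 1) with standard errors (horizontal axes) for the 8 enzymes (rows) in LdBC against Basal, LdBC against Luminal and Basal against Luminal; filled points have a limma adjusted p under 0.05, and the dashed line is the median of all genes tested (0.20, 0.01 and -0.13). Aldoc lies at 4.31 in LdBC against Basal and at -4.13 in Basal against Luminal, and Pfkl lies above 3 in both comparisons with Luminal.

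The aldolase pair was then read as a ratio of FPKM within each library, which a scaling factor per library leaves as it is. Aldoc was 0.419 and 0.616 times Aldoa in LdBC, 0.0371 and 0.0227 times in Basal and 0.328 times in Luminal (ratios of FPKM). As a share of the summed FPKM of Aldoc and Aldoa, Aldoc made up 29.5% and 38.1% in LdBC, 3.58% and 2.22% in Basal and 24.7% in Luminal. The mean log2 ratio on log2(FPKM + 1) was -0.97 in LdBC and -5.01 in Basal, a difference of 4.04, with no overlap. An exact two-sided permutation test gave p = 0.333, which is the smallest this design allows, and 0.5 after Benjamini-Hochberg adjustment over the 6 ratio comparisons. The difference was 0.63 in LdBC against Luminal (exact permutation p = 0.667, adjusted 0.8) and -3.40 in Basal against Luminal (exact permutation p = 0.333, adjusted 0.5). The sum of Aldoc and Aldoa was 894 and 881 FPKM in LdBC, 468 and 535 FPKM in Basal and 1070 FPKM in Luminal. Most of the gap between LdBC and Basal in that sum was Aldoc, since Aldoa differed by 1.21 times in the means.

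The phosphofructokinase pair behaved otherwise. Pfkl was 0.358 and 0.653 times Pfkp in LdBC, 0.437 and 0.483 times in Basal and 0.00586 times in Luminal. The Basal libraries lay inside the range of LdBC. The mean log2 ratio differed by 0.04 between LdBC and Basal (exact permutation p = 1, adjusted 1), and it was -0.06 with a pseudocount of 5; 1 of the LdBC libraries lay above and 1 below Basal. It differed by 2.79 in LdBC against Luminal and by 2.75 in Basal against Luminal (exact permutation p = 0.333 and adjusted 0.5 for each). These sizes rest on Pfkl at 0.0837 FPKM in Luminal and depend on the pseudocount: LdBC against Luminal was at 5.24 with 0.1 and 0.97 with 5, and Basal against Luminal at 5.18 and 1.02. With quantile normalization they were at 0.85 and 0.82. For LdBC against Luminal the exact permutation p was 0.667 with a pseudocount of 5 and with quantile normalization. Summed over Pfkl, Pfkp and Pfkm, the level was 130.1 and 110 FPKM in LdBC, 49.97 and 43.5 FPKM in Basal and 29.9 FPKM in Luminal. The muscle form Pfkm made up 1.36% and 4.90% of it in LdBC, 4.20% and 6.37% in Basal and 51.9% in Luminal, where Pfkl made up 0.28%. Luminal thus held Pfkp and Pfkm in near-equal amounts, with 14.3 and 15.5 FPKM, while LdBC and Basal held mainly Pfkp and Pfkl.

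**Figure D3:**
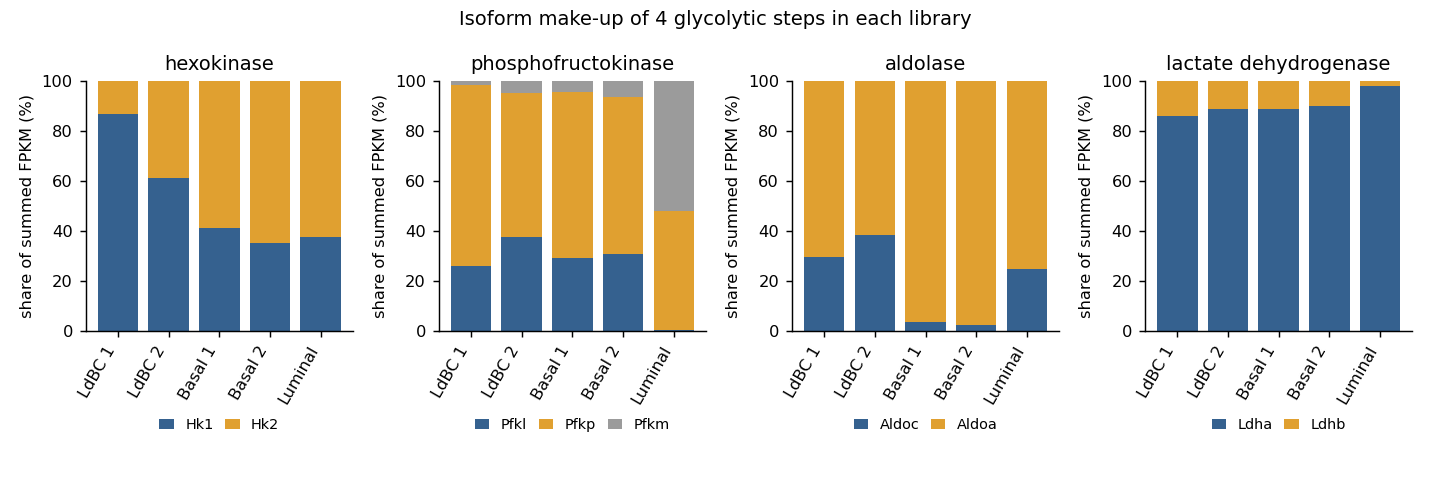
Share of each isoform in the summed FPKM of its step (vertical axes, percent) in the 2 LdBC libraries, the 2 Basal libraries and the Luminal library, for hexokinase, phosphofructokinase, aldolase and lactate dehydrogenase. Aldoc is 29.5% and 38.1% of Aldoc and Aldoa together in LdBC and 3.58% and 2.22% in Basal, and Pfkm is 51.9% of phosphofructokinase in Luminal.

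The other steps of glycolysis were read for the same libraries. Of 13 further glycolysis genes in the table, 10 passed the filter on the mean; in LdBC against Basal none passed limma's adjusted threshold, 2 had an unadjusted p under 0.05, 6 lay above Basal without overlap and none below, with a median difference of 0.55. Over all genes tested the shares were 20.0% for an unadjusted p under 0.05, 30.5% above and 18.6% below. The median of these 10 genes fell to 0.16 with median-of-ratios scaling and ran from 0.29 without LdBC replicate 2 to 0.92 without LdBC replicate 1. Hk1, the hexokinase of most tissues, had 18.8 and 32.6 FPKM in LdBC, 4.14 and 5.32 FPKM in Basal and 18.0 FPKM in Luminal (difference from Basal 2.18 ± 0.45, limma adjusted p = 0.136). Hk2, the insulin-responsive hexokinase, had 2.84 and 20.7 FPKM in LdBC, 5.90 and 9.80 FPKM in Basal and 29.9 FPKM in Luminal, so that the LdBC pair spanned Basal. Eno1, the main enolase, had 420 and 522 FPKM in LdBC, 283 and 258 FPKM in Basal and 346 FPKM in Luminal (difference from Basal 0.79 ± 0.19, limma adjusted p = 0.156). Gapdh, which oxidises glyceraldehyde 3-phosphate, had 593 and 757 FPKM in LdBC, 796 and 655 FPKM in Basal and 695 FPKM in Luminal, with overlap. Ldhb, the lactate dehydrogenase subunit that favours pyruvate, made up 14.2% and 11.4% of Ldha and Ldhb together in LdBC, 11.3% and 10.2% in Basal and 2.06% in Luminal. Against Luminal, Ldhb was the 1 gene of these 10 that passed in LdBC (difference 2.36 ± 0.23, limma adjusted p = 0.044) and in Basal (1.93 ± 0.23, limma adjusted p = 0.0399); with any LdBC or Basal library left out, no gene of the table passed in either comparison.

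Upstream and downstream of the 8 enzymes, no listed gene passed limma's adjusted threshold in LdBC against Basal. For transport, 5 genes were tested (median -0.39, from -0.94 without LdBC replicate 1 to 0.92 without LdBC replicate 2), 3 had an unadjusted p under 0.05, 2 lay above Basal and 1 below. Over all genes tested, 20.0% had an unadjusted p under 0.05 in limma, 30.5% lay above Basal without overlap and 18.6% below. Slc2a1, the basal glucose transporter GLUT1, had 497 and 399 FPKM in LdBC, 194 and 234 FPKM in Basal and 74.9 FPKM in Luminal (difference from Basal 1.06 ± 0.21, limma adjusted p = 0.133). Slc2a4, the insulin-responsive GLUT4 of fat and muscle, had 0 and 0.0459 FPKM in LdBC, 11.7 and 18.2 FPKM in Basal and 0 FPKM in Luminal. The adipocyte marker Fabp4, the 1 of 4 in the table, was at 473 and 0 FPKM in the same Basal libraries, and the part of such cells in the Slc2a4 levels was not tested. Bsg, a partner of lactate transporters, had 540 and 548 FPKM in LdBC, 293 and 261 FPKM in Basal and 1475 FPKM in Luminal. In LdBC against Luminal Slc2a1 rose by 2.56 ± 0.26 (limma adjusted p = 0.0452) and Bsg fell by 1.44 ± 0.18 (limma adjusted p = 0.0499), both calls that no leave-one-out fit kept. Of the regulators of phosphofructokinase, 3 were tested and 1 lay above Basal: Pfkfb3, which makes its activator fructose 2,6-bisphosphate, had 10.4 and 15.8 FPKM in LdBC, 2.10 and 1.79 FPKM in Basal and 32.9 FPKM in Luminal.

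The branches that draw on glycolysis were counted in the same way, to be read against the 20.0%, 30.5% above and 18.6% below over all genes tested. All 12 genes of pyruvate entry into mitochondria were tested: 6 had an unadjusted p under 0.05, 6 lay above Basal and 2 below, with a median difference of 0.65 in LdBC against Basal. In the pentose phosphate pathway 7 genes were tested, 3 had an unadjusted p under 0.05, 4 lay above Basal and none below, and the median was 1.28. Taldo1, transaldolase, had 270.0 and 221 FPKM in LdBC, 48.3 and 38.5 FPKM in Basal and 256 FPKM in Luminal (difference from Basal 2.47 ± 0.23, limma adjusted p = 0.123). Like Aldoc, it was low in Basal and at one level in the other libraries, and in Basal against Luminal it fell by 2.54 ± 0.28 (limma adjusted p = 0.0381, lost with any LdBC or Basal library left out). Pgd, which makes NADPH, had 124 and 98.5 FPKM in LdBC, 37.6 and 25.2 FPKM in Basal and 78.6 FPKM in Luminal. The 12 genes of lactose and glycogen had a median of -0.10 (5 above Basal, 1 below), the 4 of gluconeogenesis 0.51 (none without overlap) and the 5 of the shuttles 0.54 (2 above, none below). No test compared these medians, and they moved with the alternatives: that of lactose and glycogen between -0.20 and 1.62, that of gluconeogenesis between 0 and 1.91, that of the shuttles between 0.13 and 1.21, that of pyruvate entry between 0.33 and 0.74 and that of the pentose phosphate pathway between 0.79 and 1.69.

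Known regulators of glycolysis genes were also read. Hif1a, the oxygen-regulated factor, had 58.8 and 54.9 FPKM in LdBC, 60.7 and 89.3 FPKM in Basal and 63.5 FPKM in Luminal. Myc had 192 and 164 FPKM in LdBC, 209 and 189 FPKM in Basal and 230.5 FPKM in Luminal. The 3 regulators with the largest differences from Basal in LdBC were Mlx (1.69 ± 0.78), Epas1 (-1.07 ± 0.55) and Klf5 (0.70 ± 0.37; SE). Their limma adjusted p were 0.348, 0.395 and 0.405. The 7 regulators tested had a median of -0.16 in LdBC against Basal, with none at an unadjusted p under 0.05, 3 above Basal and 2 below. For this list and the next, the shares over all genes tested were 20.0% at an unadjusted p under 0.05 in limma, 30.5% above and 18.6% below. The 12 hypoxia-inducible genes outside glycolysis had a median of -0.10, with 3 above Basal, 2 below and 1 at an unadjusted p under 0.05. That gene was P4ha1, a collagen prolyl hydroxylase subunit, with 0.190 and 0.125 FPKM in LdBC, 9.36 and 11.5 FPKM in Basal and 0 FPKM in Luminal. Over the alternatives the median of the regulators ran from -0.55 to 0.26 and that of the hypoxia-inducible genes from -0.53 to 0.02; their difference from the 8 enzymes was not tested.

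**Figure D4:**
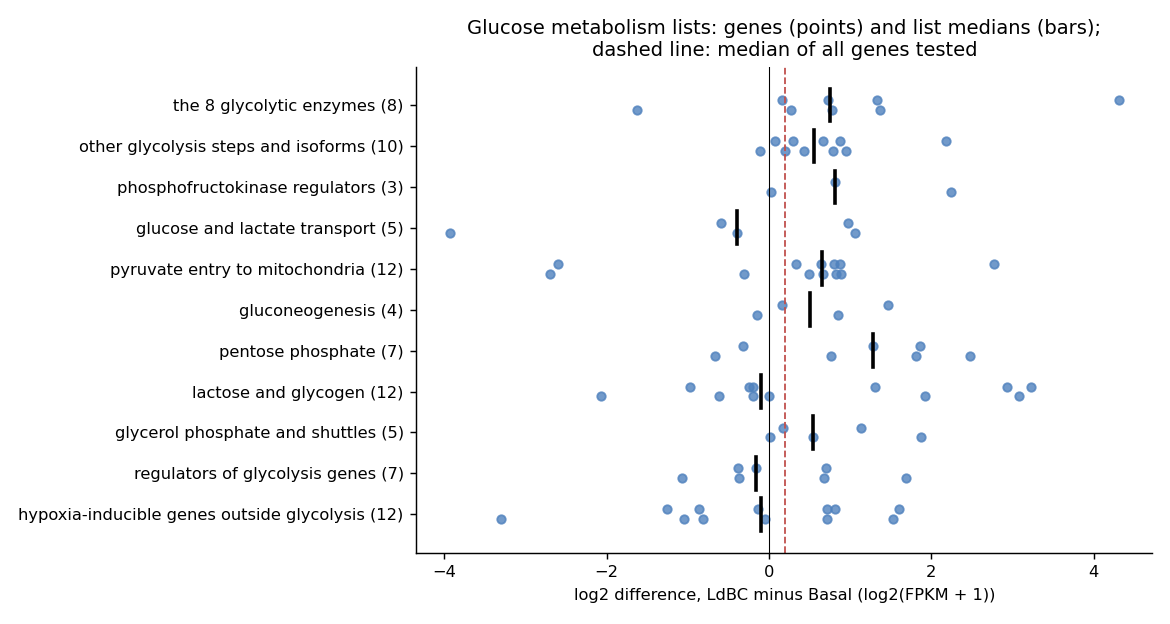
Log2 differences of log2(FPKM + 1), LdBC minus Basal (horizontal axis), of the tested genes of each list (points; number in brackets) with the list median (bar); the dashed line is the median of all genes tested, 0.20. The medians are 0.76 for the 8 enzymes, 0.55 for other glycolysis genes, 1.28 for the pentose phosphate pathway and -0.10 for hypoxia-inducible genes outside glycolysis.

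The promoters of the 8 enzymes were searched for letters that factors of these lists are known to bind, in RefSeq windows of GRCm38.p6 from 250 bases before to 50 after each start. The core of the hypoxia response element, ACGTG, was in 6 of the 13 windows of the 8 genes (5 genes) and in 19.6% of all 32851 windows. The E-box CACGTG, which Myc can bind and which contains ACGTG on both strands, was in 1 of 13 windows (Ldha) and in 7.15% of all windows. The GC box GGGCGG was in 9 of 13 windows (all 8 genes) and in 35.7% of all windows; all were searched on both strands, and windows of 1 gene can overlap. In 3 genes ACGTG lay before the start in bases outside any annotated exon of their gene. For 1 window of each, the 250 bases before the start are shown, on the gene's strand, 5′ to 3′, with matches on either strand in capitals.
Aldoa, chr7:126799255-126799504, minus strand: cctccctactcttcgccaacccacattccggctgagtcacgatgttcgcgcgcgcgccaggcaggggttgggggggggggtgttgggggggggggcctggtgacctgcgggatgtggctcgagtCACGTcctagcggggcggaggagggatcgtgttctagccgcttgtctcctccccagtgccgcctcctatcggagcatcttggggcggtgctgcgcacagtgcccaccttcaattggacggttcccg
Pgam1, chr19:41911621-41911870, plus strand: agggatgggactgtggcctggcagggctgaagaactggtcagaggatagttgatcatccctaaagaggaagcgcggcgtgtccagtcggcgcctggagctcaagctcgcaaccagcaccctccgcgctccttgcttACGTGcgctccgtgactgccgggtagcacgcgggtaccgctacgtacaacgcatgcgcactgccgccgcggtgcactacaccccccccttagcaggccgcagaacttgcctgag
Ldha, chr7:46845554-46845803, plus strand: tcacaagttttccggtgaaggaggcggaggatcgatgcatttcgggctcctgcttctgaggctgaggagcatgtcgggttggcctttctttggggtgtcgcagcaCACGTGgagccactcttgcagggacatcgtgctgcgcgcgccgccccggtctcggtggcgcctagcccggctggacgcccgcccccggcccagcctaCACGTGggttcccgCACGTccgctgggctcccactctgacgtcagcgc
Ldha held 5 matches, 4 of them in 2 E-boxes, and Aldoa and Pgam1 held 1 each in these bases. ACGTG also stood in windows of Aldoc (1 match) and Pkm (2 matches), in bases not shown, and in none of Pfkl, Pfkp and Tpi1. A match is a run of letters and not a measured site.

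For each enzyme the 3 genes of nearest pattern were taken, by the Euclidean distance of log2(FPKM + 1) centred per gene over the 5 libraries, among 5124 genes with a mean of at least 10 FPKM. With 5 libraries many genes share a pattern, so this is a description of levels. Nearest to Aldoc were the tight junction gene Cldn4 (distance 0.40), the luminal keratin Krt8 (0.49) and 5730469M10Rik (0.64). Krt8 is 1 of the 6 luminal markers above, with 8153 and 6685 FPKM in LdBC, 441 and 324 FPKM in Basal and 5708 FPKM in Luminal, and the part of luminal RNA content in the Aldoc levels was not tested. Nearest to Pfkl were Alas1 (0.26), AI314976 (0.41) and Stxbp2 (0.47), all 3 listed at 0 in Luminal. Pfkp lay nearest to Zfp295 (0.46), Fosl1 (0.52) and Atp2b1 (0.53), and Pgam1 to Tmem70 (0.33), Ruvbl2 (0.35) and Tmem39a (0.41). The distance is not scaled to the range of a gene, so genes with a narrow range tend to lie closer to others. The distances were taken without scaling the libraries, and Aldoa, Pgam1 and Ldha changed their order of groups with scaling. On the unscaled values, the 4 enzymes that were highest in Luminal and lowest in Basal had closer neighbours. These were Rab14 (0.09), Ap3b1 (0.16) and Psmd12 (0.18) for Aldoa, Uck2 (0.13), Copb1 (0.16) and Manf (0.19) for Tpi1, Fkbp4 (0.13), Ier3ip1 (0.13) and Kcnk1 (0.16) for Pkm, and Gm9781 (0.06), Arf4 (0.07) and Stat3 (0.13) for Ldha.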

How the data were processed

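The authors processed the RNA-seq reads of 5 libraries using Cufflinks 2.0.2, Cuffdiff 2.0.2 and TopHat2 2.0.4 on the mm10 build, per the submitters' processing notes; the sources used here do not give the gene annotation. Values in the deposited table are log2(FPKM + 1) for each gene in each library. This scale was inferred from the table, since with a base of 2 between 99.69% and 99.78% of values above 1 return to an FPKM of 6 digits within 0.02 of the last digit. Of 12311 rows, 18 with names turned into dates (0.085% to 0.119% of summed FPKM) were left out. The highest FPKM of every gene was above 1 (lowest 1.0003), so genes under that level are not analysed here.

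FPKM keeps no read counts, so depth is unknown and no count model or counting interval was used. The test was limma 3.58.1 in R 4.3.3 with an intensity trend on log2(FPKM + 1), a pseudocount of 1, in 1 fit of all 5 libraries with a mean per group, over 10626 genes with mean FPKM of at least 1. All p-values were two-sided, with Benjamini-Hochberg adjustment over those genes, and a gene was called at an adjusted p under 0.05. Differences on this scale understate the change of low genes. The limma fit of LdBC against Basal was tried on simulated data with the same normal spread for every gene. The comparisons with Luminal, the ratios and the sequence steps were not simulated. Ratios of isoforms were compared by exact permutation of libraries. Copies were found with BLAST 2.17.0 among GENCODE M21 transcripts, coding sequences were aligned with Biopython 1.88, and promoters come from RefSeq (GRCm38.p6).

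The enzymes and gene lists were chosen with earlier results of these data known. Named beside the 8 enzymes are other glycolysis genes, up to 3 genes per list with the largest difference in LdBC against Basal, and the 3 genes of nearest pattern; Hif1a and Myc were named outside this rule, after their values were seen. Lists of fibroblast, pericyte, immune, Schwann and erythrocyte markers were summed too. Their sums were at most 305 FPKM (fibroblast, nearly all Dcn, in Luminal), 24.9 FPKM (pericyte), 13.1 FPKM (immune), 26.5 FPKM (Schwann, Mbp alone) and 26.5 FPKM (erythrocyte, Alas2 alone). None of the 4 skeletal muscle markers listed was a row of the table.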

Additional observations from a re-analysis of the deposited data

How the results depend on the processing

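Over all alternatives and comparisons, 233 of 280 differences of the 8 enzymes kept their direction and their side of the threshold. Of the rest, 31 lost the call, 3 gained one and 13 changed sign. As reported, 1 of the 8 was called in LdBC against Luminal, 4 in Basal against Luminal and none in LdBC against Basal. Most of the 233 thus had no call to lose. The filters on the mean, the intensity trend and the replicate block cannot change a difference. The same holds for leaving out a library of a group that is not in the comparison. Of 40 ratio differences 37 kept their sign, with no limit set on their size. Of 260 list medians 192 moved by less than the mean SD of that list's median within the LdBC and Basal pairs. In LdBC against Basal the table had 1 gene passing, and 0 with a pseudocount of 0.1, without an intensity trend, without the Luminal library, or with any 1 replicate left out (0 to 0), 2 with a mean FPKM of at least 5 and 4 with quantile normalization. In LdBC against Luminal 426 genes passed, against 1175 with a pseudocount of 0.1, 788 with a mean of at least 5, 647 without a trend, 4 with no filter, 4 with median-of-ratios scaling, and 0 to 0 with a replicate left out. In Basal against Luminal 883 passed, against 1826, 1621 and 488 with a pseudocount of 0.1, a mean of at least 5 and no filter, and 0 to 0 with a replicate left out. Leaving out a library leaves 1 residual degree of freedom. The sign changes in LdBC against Basal were Aldoa (-0.12 with median-of-ratios scaling, -0.23 with quantiles), Ldha (-0.24, -0.36, and from -0.05 to 0.37 with a replicate left out, the lowest without LdBC replicate 2) and the ratio of Pfkl to Pfkp (-0.06 with a pseudocount of 5, and -0.39 to 0.47 with a replicate left out). In LdBC against Luminal Ldha was at 0.03 with median-of-ratios scaling. In Basal against Luminal Aldoa, Pgam1 and Ldha were at 0.07, 0.69 and 0.27 with that scaling and at 0.09, 0.85 and 0.18 with quantiles, and Pgam1 ran from -0.21 to 0.01 with a replicate left out, the highest without Basal replicate 2. Median-of-ratios scaling moved the median of all genes to -0.11 in LdBC against Basal, 0.27 in LdBC against Luminal and 0.42 in Basal against Luminal, against 0.20, 0.01 and -0.13 as reported, and in the last it turned the split of passing genes to 387 higher and 232 lower, against 343 and 540. The cause of these changes was not tested. LdBC and Basal share replicate numbers, and a replicate block gave 0 genes passing (1710 at an unadjusted p under 0.05). The deviations of same-numbered libraries correlated at 0.012 over genes. With so few libraries this cannot show whether same-numbered libraries came from the same animals, which the labels do not say. No paired analysis was possible with Luminal because it has 1 library.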
